A study of Bos taurus with 34 samples.

Results

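Knockout and control morulae of the cow were compared across genes and pathways, using 8 of the 34 single embryos of the series. Knockout morulae were embryos 1, 5, 21 and 49 and control morulae embryos 39, 41, 54 and 73, taken by the embryo numbers and stage in the labels. Knockouts 5, 21 and 49 were female and knockout 1 was male. Controls 39, 41 and 54 were male and control 73 was female. The sample titles call the knockouts CSF2KO, the name of the ligand, while the series title speaks of a deletion of CSF2RA, the receptor. The labels do not say how the deletion was made, whether any embryo was mosaic, or what the controls carried. They give all embryos the same growth and treatment entries, development in vitro and added recombinant Wnt5A, although the series title speaks of embryos in utero and the design text of blastocysts produced in vivo. Each sample is labelled as an individual embryo, and each was taken as 1 replicate. The other 26 embryos were blastocysts, 9 knockout and 17 control, and served only to set the changes of single genes side by side.

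CSF2 is a cytokine of the oviduct and uterus that acts on the preimplantation embryo. Its receptor pairs CSF2RA, which binds the ligand, with CSF2RB, which passes the signal to JAK and STAT proteins. The morula is the compacted embryo in which outer cells take on the trophectoderm fate, forming the epithelium that later makes placenta, while inner cells keep pluripotency. CSF2RA and CSF2RB were not analysed here in the morulae, so the genotype labels of the morulae were not checked against the targeted gene.

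The deposited RPKM values are scaled to library size and to the genomic span of each gene. They were turned into CPM and into whole reads. CPM is scaled to the effective library alone, which is the library size that the deposited values imply. In reads assigned to genes, the knockouts held 89857, 124603, 85929 and 43679 and the controls 1526852, 287512, 340731 and 93980. Only control 73 was as shallow as the knockouts. Effective libraries differed from these reads. They were 124648, 121208, 39265 and 44451 in the knockouts and 1852822, 283733, 438640 and 97148 in the controls. In knockout 21 the effective library lay far below the reads in genes, which raises its CPM and summed CPM relative to its share of reads. In knockout 1 and in controls 39 and 54 it lay well above them, which lowers both. Of 14878 genes, 8122 had 5 or more reads in at least 2 embryos and were tested. The share of tested genes with 5 or more reads was 44.8%, 42.4%, 7.65% and 13.3% in the knockouts and 99.7%, 76.4%, 89.2% and 36.99% in the controls. A count of 0 therefore allowed a level of up to 1.62 CPM (3 reads) in control 39, up to 24.1 CPM in knockout 1, up to 24.8 CPM in knockout 5, up to 67.5 CPM in knockout 49 and up to 76.4 CPM in knockout 21. These limits cover counting error only, and a knockout with 0 reads is set apart from a control only where the control lies above them.

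Knockout 21 stood apart from the other 7 morulae. Its median correlation with them over the 8122 tested genes, on log2(CPM + 10), was 0.383, against 0.644 to 0.796 for the others. CDX2, GATA3 and TFAP2C, transcription factors of the trophectoderm, had 0 reads in it, as did POU5F1 and NANOG of the inner cell mass and GATA6 of the hypoblast. SOX17, the other hypoblast marker, had 14 reads in it, at 357 CPM the highest of the 8 embryos, against 8.02, 0 and 0 CPM in the other knockouts and 7.02, 17.6, 27.4 and 10.3 CPM in the controls. The keratins KRT8 and KRT18, which mark the outer epithelium, had 4 and 9 reads in it. In the other 3 knockouts and the 4 controls CDX2, GATA3, TFAP2C, KRT8 and KRT18 all had reads, and their summed level was 6410, 8193 and 5129 CPM in knockouts 1, 5 and 49 and 15265 to 18324 CPM in the controls, against 331 CPM in knockout 21. These genes mark the trophectoderm lineage and are also on in blastocysts, so they do not check the stage itself. NPAT, a coactivator of histone genes, and GSC2, a homeobox gene, took 36.2% and 28.9% of the reads of knockout 21, with 95% Wilson intervals of 35.9% to 36.5% and 28.6% to 29.2%. Each result that leads below is given with all 8 embryos and without knockout 21, and the gene lists also without knockouts 21 and 49, the 2 embryos with the fewest tested genes at 5 or more reads. Markers of cumulus cells, oviduct epithelium and spermatozoa were too low to be tested, with summed levels of at most 25.5 CPM in any embryo. Leukocyte markers summed to 206 CPM in control 73 and to 0 to 102 CPM in the other 7 embryos, erythrocyte markers to 134 CPM in control 73 and to 0 to 24.8 CPM in the others, and fibroblast markers to 51.5 CPM in control 73 and to 0 to 43.3 CPM in the others. The part of these in the results that rest on control 73 was not tested.

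Each knockout showed fewer detected genes than each control when all embryos were thinned to the same effective library, a setting chosen after seeing the data. It left unequal reads in genes, with the fewest in knockout 1. These were 28306, 40365, 85929 and 38583 in the knockouts and 32357, 39788, 30501 and 37985 in the controls. Knockouts 1, 5, 21 and 49 then showed 5910, 5576, 4392 and 4743 genes with a read, and controls 39, 41, 54 and 73 showed 6371, 6244, 6123 and 6020. The groups did not overlap, with an exact two-sided permutation p of 0.0286, the smallest that 4 against 4 embryos allow, and an adjusted p of 0.114 over 6 library measures. With all embryos thinned to the same total number of reads the groups overlapped, 3126 to 6904 genes against 6363 to 7152. The exact permutation p was 0.0857. Knockout 1, at 6904 genes, then lay above controls 41 and 73, at 6509 and 6363, and below the other controls. The 10 most abundant genes took 16.3%, 40.1%, 77.6% and 54.6% of the reads of the knockouts and 15.3%, 27.0%, 14.8% and 34.1% of those of the controls. That share was highest in knockouts 21 and 49, and the groups overlapped, with an exact permutation p of 0.114.

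**Figure D1:**
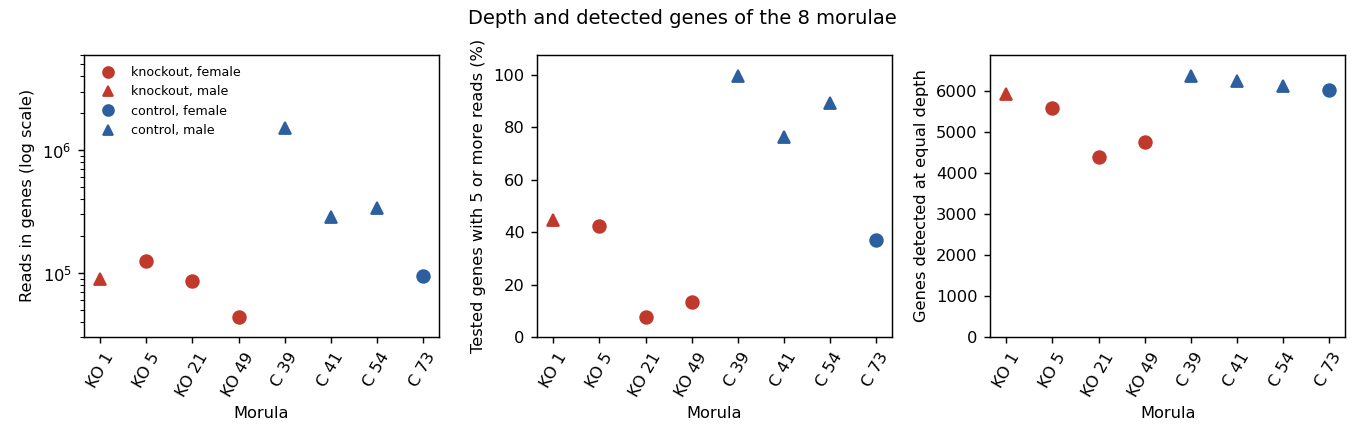
Reads in genes (log scale), percentage of tested genes with 5 or more reads, and number of genes with a read at equal effective library for each of the 8 morulae; red marks knockouts (KO), blue controls (C), circles females and triangles males. Control 39 was the deepest at 1526852 reads, and in the right panel all 4 knockouts lie below the 4 controls. The reads left in the right panel were not equal between embryos.

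No gene passed the genotype test in the 8 morulae. In limma's moderated test with sex as a term, 0 of 8122 genes reached a Benjamini-Hochberg adjusted p under 0.05 (0.0%), and the adjusted p was nowhere below 0.284. Before adjustment, 618 genes (7.61%) were lower in knockouts with p under 0.05, and 74 (0.911%) were higher. The log2 difference was below 0 for 5690 genes (70.1%), and its median over all genes, the shift against which genes and lists are read, was -0.38. Under quantile scaling the shift was 0.034 and the split at an unadjusted p under 0.05 was 256 lower and 257 higher, and with voom weights the split was 444 and 180. The balance of lower and higher genes moved with the scaling, so lists are described relative to the shift. Since control 73 was the lone female control and knockout 1 the lone male knockout, the sex term leans on them, and the lists that lead the text are also given without either where that moved them.

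Every knockout lay below every control for 724 genes (8.91%) and above for 32 (0.394%). At equal effective library these counts were 333 (4.1%) and 30 (0.369%). Without knockout 21 the test called 9 genes (0.111%), all lower: CLDN4, SFN, PTGS2, AKR1B1, FTL, GCA, ARPC1B, HSP90B1 and VWA1. Without knockouts 21 and 49 it called 24 (0.295%), all lower and including those 9, and at equal effective library 6 (0.0739%), of which PATZ1 was higher. These calls came from alternatives to a fit that called none.

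Transcripts listed as trophoblast products, which include keratins and cellular enzymes beside secreted proteins, stood farthest below the shift. Of 23 listed members with values, 19 were tested, and all 19 had a log2 difference below 0, against 70.1% of all genes. At an unadjusted p under 0.05 there were 12 (63.2%, against 7.61%), and 8 had every knockout below every control (42.1%, against 8.91%). The median difference of the list was -1.98, -1.59 relative to the shift, and -1.13 without knockout 21, -1.09 without knockouts 21 and 49 and -1.71 at equal effective library. It was -0.996 without control 73 and -2.01 without knockout 1, and it stayed below the shift in all 22 alternatives. Summed over the list, the knockouts held 8777, 12235, 1604 and 8549 CPM and the controls 21739, 28865, 21257 and 26383 CPM. The male knockout 1 lay below all 3 male controls and each female knockout below the female control. These sums lean on the keratins KRT8 and KRT18, at 3121 and 2840 CPM in knockout 1 and 7887 and 7082 CPM in control 39. They do so less in knockout 21, where the keratins were at 102 and 229 CPM. The list was chosen with results of these embryos known and its direction is not independent evidence. In bulk RNA of an embryo, fewer cells of a type and less RNA per cell cannot be told apart.

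PTGS2, the inducible cyclooxygenase that starts prostaglandin synthesis, was at 16.05, 16.5, 0 and 225 CPM in knockouts 1, 5, 21 and 49 and at 615, 451, 349 and 607 CPM in controls 39, 41, 54 and 73. All 4 controls were above all 4 knockouts, of which knockout 49 was the highest. The log2 difference was -4.07 ± 0.90 (SE, adjusted p = 0.284 in limma's test), and without knockout 21 it was -3.61 with an adjusted p of 0.0324. PLAU, the urokinase-type plasminogen activator, was at 32.1, 8.25, 0 and 67.5 CPM in the knockouts and 164, 324, 135 and 576 CPM in the controls. Its groups did not overlap either, with a log2 difference of -3.44 ± 0.84 (SE, adjusted p = 0.284 in limma's test). PAG2, a pregnancy-associated glycoprotein of the ruminant trophoblast, had 2, 2, 0 and 0 reads in the knockouts and 129, 59, 39 and 41 in the controls. It was at 16.05, 16.5, 0 and 0 CPM against 69.6, 208, 88.9 and 422 CPM, again without overlap. Control 39 nevertheless lay below the 76.4 CPM that 0 reads allow in knockout 21. Reads of this multigene family can be split between near-identical copies. KRT8 was at 3121, 4397, 102 and 2767 CPM in the knockouts and 7887, 9336, 7569 and 8389 CPM in the controls, and KRT18 at 2840, 3531, 229 and 2002 CPM and 7082, 8610.2, 9009.7 and 6269 CPM. Both keratins were lower in every knockout, by far the lowest being knockout 21.

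Other members of this list, named after their values were seen, included enzymes of steroid and prostaglandin synthesis. CYP11A1, which makes pregnenolone from cholesterol, was at 0, 8.25, 0 and 0 CPM in the knockouts and 4.32, 17.6, 13.7 and 134 CPM in the controls. Knockout 5, at 1 read, lay above control 39, and only control 73 was above the limits that 0 reads allow in the knockouts. AKR1B1, an aldo-keto reductase with prostaglandin F synthase activity in cattle, was at 0, 24.8, 688 and 112 CPM in the knockouts and 192, 546, 148 and 474 CPM in the controls. Knockout 21 held the highest level of all 8 embryos and the other 3 knockouts lay below the controls, and the adjusted p went from 0.305 to 0.0237 without knockout 21. IFNT, the interferon with which the ruminant embryo signals pregnancy, had 0 reads in each knockout and in controls 41 and 54. It was at 15.7 CPM in control 39, within the limits of the knockouts, and at 103 CPM in control 73, which alone lay above them, and it too belongs to a multigene family.

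The transcription factors of the trophectoderm lay much nearer the shift than its products. Of 22 tested, 16 were lower, 1 of them at an unadjusted p under 0.05. The median was -0.33 relative to the shift, -0.12 without knockout 21 and -0.09 without knockouts 21 and 49. Without control 73 it was 0.09, on the other side of the shift. Summed levels were nevertheless lower in each knockout than in each control. They were 2864, 2145, 1554 and 2160 CPM in the knockouts and 3474, 3087, 3600 and 2975 CPM in the controls. For 3 of the 22 every knockout lay below every control (13.6%, against 8.91%). Without knockout 21 this held for 7 of the 22, against 904 of all 8122 genes. CDX2, the homeobox factor of trophectoderm, was at 88.2, 41.3, 0 and 22.5 CPM in the knockouts and 79.9, 74.0, 15.96 and 113 CPM in the controls, and knockouts 1, 5 and 49 were within the range of the controls. GATA3, which acts beside CDX2, was at 217, 90.8, 0 and 202 CPM and 215, 201, 169 and 371 CPM, and knockouts 1 and 49 were within the range of the controls. ELF3, an epithelial ETS factor, had the smallest p of the list and was at 0, 0, 25.5 and 0 CPM in the knockouts and 58.8, 35.2, 22.8 and 41.2 CPM in the controls. The groups overlapped, since the 1 read of knockout 21 was worth more CPM than the 10 of control 54. Transcripts of the epiblast and of pluripotency had a median of 0.15 relative to the shift over 15 genes, 0 of them at an unadjusted p under 0.05. That median took either sign, being 0.53 without knockout 21, 0.53 without control 73, -0.24 without knockout 1 and -0.21 without knockout 5. Hypoblast genes had a median of -0.28 relative to the shift, with 3 of 20 lower at an unadjusted p under 0.05, and of -0.55 without knockout 49, -0.11 without knockout 21 and 0.01 without control 73. One of them was APOA1, an apolipoprotein, at 8.02, 74.3, 0 and 0 CPM in the knockouts and 94.99, 444, 9.12 and 1359 CPM in the controls, where control 54 lay below knockout 5.

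**Figure D2:**
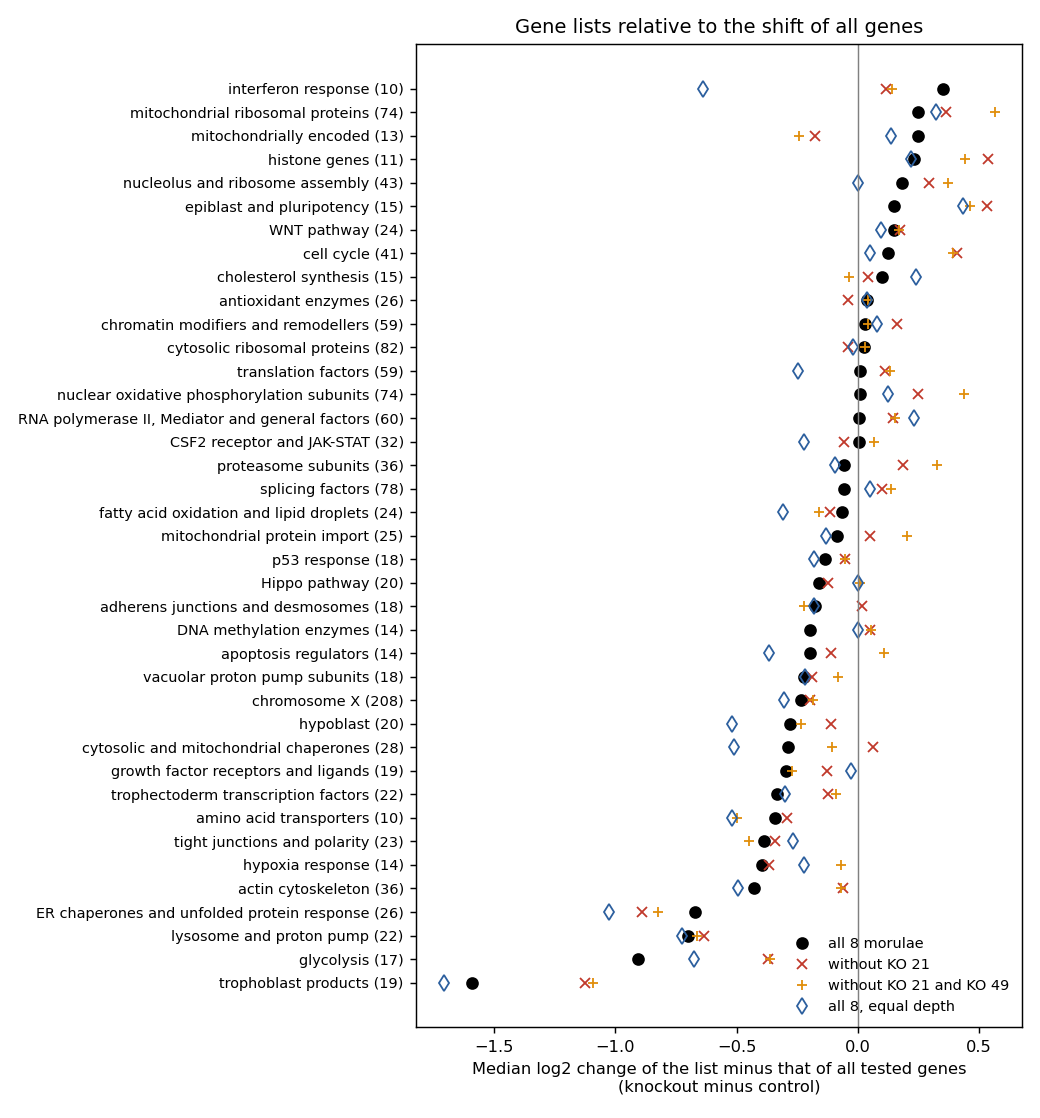
Median log2 difference (knockout minus control) of each gene list with 10 or more tested genes, minus the median of all tested genes; the number of tested genes is in brackets. Black points use all 8 morulae, red crosses leave out knockout 21, orange plus signs leave out knockouts 21 and 49, and blue diamonds use equal effective libraries. Trophoblast products lie at -1.59 with all 8 embryos, and the glycolysis and actin lists lie nearer 0 without knockout 21. The lists without control 73 or knockout 1 are not drawn and stand in the text.

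Chaperones of the endoplasmic reticulum were lower as a group, by a median that shrank to -0.15 relative to the shift without knockout 1. These proteins fold secreted and membrane proteins, and their genes are switched on by the unfolded protein response. Of 26 tested genes 24 were lower, 8 of them at an unadjusted p under 0.05 (30.8%, against 7.61% of all genes), and for 7 every knockout lay below every control (26.9%, against 8.91%). The median relative to the shift was -0.67, and it was -0.89 without knockout 21, -0.82 without knockouts 21 and 49 and -1.03 at equal effective library. Their summed level was 1941, 2434, 2037 and 2047 CPM in the knockouts and 5082, 5921, 4569 and 4262 CPM in the controls. The knockouts were close to one another, knockout 21 included, and lay below every control. Sums without overlap were not particular to this list or to trophoblast products. Lists with medians nearer the shift had them too, among them fatty acid oxidation (-0.06), p53 response (-0.14) and Hippo pathway (-0.16).

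HSP90B1, the HSP90 of the endoplasmic reticulum, was at 32.1, 165, 153 and 202 CPM in the knockouts and 599.6, 737, 362 and 556 CPM in the controls, with a mean of 138 ± 73.8 (SD, n = 4) against 564 ± 155 (SD, n = 4). The groups did not overlap, and the log2 difference was -2.68 ± 0.67 (SE, adjusted p = 0.284 in limma's test, 0.0332 without knockout 21). HSPA5, the HSP70 chaperone of the same compartment, was at 96.3, 157, 153 and 202 CPM and 674, 881, 456 and 515 CPM, likewise without overlap (adjusted p = 0.311 in limma's test). CRELD2, a stress-induced folding factor, had 3, 5, 0 and 0 reads in the knockouts and 194, 53, 35 and 24 in the controls. ATF4, the transcription factor of the PERK arm of the response, was among the 2 list members above 0, at 217, 206, 76.4 and 67.5 CPM in the knockouts and 192, 219, 137 and 30.9 CPM in the controls, with overlap.

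Lysosomal genes formed the third such group. Of the 22 tested, 20 were lower, 7 at an unadjusted p under 0.05 (31.8%, against 7.61% of all genes) and 6 without overlap (27.3%, against 8.91%), with a median of -0.70 relative to the shift and of -0.63 without knockout 21 and -0.66 without knockouts 21 and 49. It was -0.34 without control 73 and -1.07 without knockout 1. Summed levels were 3618, 3894, 2419 and 3554 CPM in the knockouts and 5729.6, 6379, 4913 and 7772 CPM in the controls. CTSB, a cysteine protease, was at 168, 231, 306 and 180.0 CPM in the knockouts and 467, 455, 424 and 731 CPM in the controls, and SCARB2, a lysosomal membrane receptor, at 8.02, 16.5, 25.5 and 0 CPM and 41.6, 91.6, 75.2 and 61.8 CPM. For both, each knockout was below each control, but SCARB2 had 1, 2, 1 and 0 reads in the knockouts, and the limit for 0 reads in knockout 49 lies above controls 39 and 73. LIPA, the acid lipase, had 0 reads in each knockout and was at 4.32, 3.52, 11.4 and 61.8 CPM in the controls, of which only control 73 was above the limit of any knockout.

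**Figure D3:**
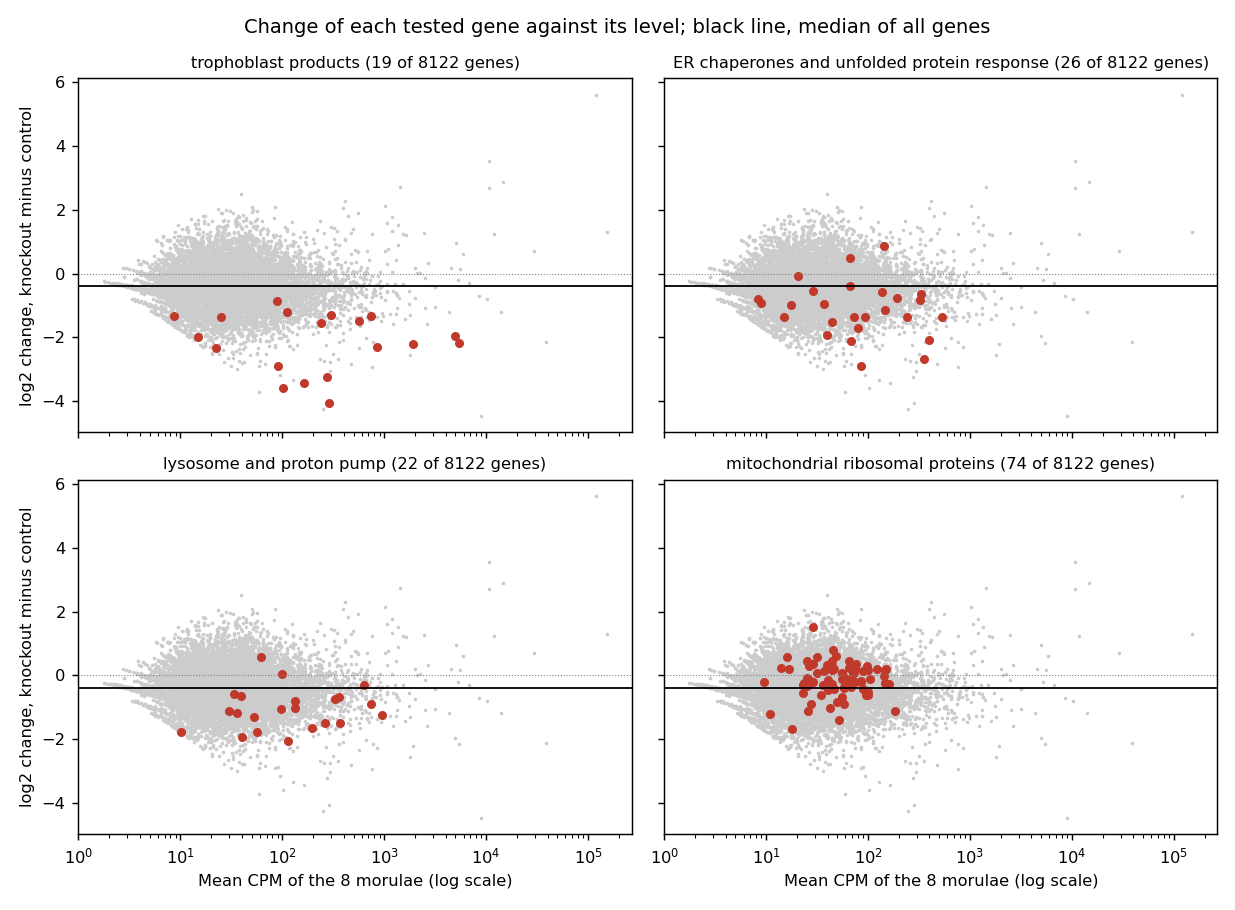
Log2 difference (knockout minus control) of each of the 8122 tested genes in grey against its mean CPM over the 8 morulae (log scale), with the members of 4 lists in red. The black line is the median of all genes, -0.38, and the dotted line is 0. All 19 trophoblast products lie below the black line.

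Lists for glycolysis, the actin cytoskeleton and tight junctions were also below the shift, the first pair much less so without knockout 21. Glycolytic genes had a median of -0.91 relative to the shift, with 14 of 17 lower, 4 at an unadjusted p under 0.05 (23.5%, against 7.61% of all genes) and 6 without overlap (35.3%, against 8.91%), but -0.37 without knockout 21, -0.26 without control 73 and -1.38 without knockout 1. ENO1, the enolase, was at 233, 347, 50.9 and 202 CPM in the knockouts and 694, 952, 812 and 1225 CPM in the controls, without overlap, with a log2 difference of -2.33 ± 0.70 (SE, adjusted p = 0.322 in limma's test). Genes of the actin cytoskeleton had 12 of 36 without overlap (33.3%, against 8.91%) but 2 at an unadjusted p under 0.05 (5.56%, against 7.61%). Their median was -0.43, and -0.06 without knockout 21 and also without control 73, and -0.70 without knockout 1. ARPC1B, a subunit of the ARP2/3 complex that nucleates actin, was at 8.02, 24.8, 127 and 0 CPM in the knockouts and 133, 183, 169 and 381 CPM in the controls. Tight junction and polarity genes had a median of -0.39, of -0.34 without knockout 21, of -0.11 without control 73 and of -0.73 without knockout 1. CLDN4, a claudin of the sealing strand, was at 40.1, 165, 25.5 and 157 CPM in the knockouts and 233, 434, 280.4 and 710.3 CPM in the controls, without overlap, with an adjusted p of 0.284 in limma's test and of 0.0275 without knockout 21.

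Housekeeping programmes lay near the shift with all 8 embryos. Cytosolic ribosomal proteins had a median of 0.02 relative to it over 82 genes, with 2 lower at an unadjusted p under 0.05. Nuclear subunits of oxidative phosphorylation had 0.01 over 74 genes, splicing factors -0.06 over 78, translation factors 0.01 over 59 and RNA polymerase II with Mediator 0.00 over 60. With 1 embryo left out, RNA polymerase II with Mediator reached 0.29 without knockout 1, cytosolic ribosomal proteins ran from -0.21 without control 54 to 0.14 without control 73 and oxidative phosphorylation ran from -0.21 without knockout 5 to 0.25 without knockout 21. Without knockouts 21 and 49 oxidative phosphorylation lay farther above the shift, at 0.44. The list of JAK-STAT and downstream signalling genes, which holds neither CSF2RA nor CSF2RB here, had 0.00 over 32 genes. Of these, 3 were lower at an unadjusted p under 0.05 (9.38%, near the 7.61% of all genes). Every knockout lay below every control for 5 of the 32 (15.6%, against 8.91% of all genes) and above for 1. At equal effective library the median was -0.22 relative to the shift. There 4 of the 32 lay below without overlap, against 333 of all 8122 genes, and 0 above. With 1 embryo left out the list ran from -0.18 without knockout 1 to 0.15 without control 73. It lay below the shift in 11 of the 22 alternatives. Its summed level was 2559, 3581, 13065 and 4207 CPM in the knockouts and 2257, 3436, 2059 and 3582 CPM in the controls, and was not lower in knockouts. One was LYN, a SRC-family kinase that associates with CSF2RB in human blood cells, at 8.02, 49.5, 0 and 0 CPM in the knockouts and 81.0, 130.4, 88.9 and 124 CPM in the controls, without overlap. Mitochondrial ribosomal proteins were above the shift at 0.25 over 74 genes. They were at 0.36 without knockout 21, 0.56 without knockouts 21 and 49, 0.18 under quantile scaling and 0.11 without knockout 1. Of 43 lists, 9 stayed below the shift and 3 above it in all 22 alternatives, leave-one-out fits included. Beside trophoblast products, endoplasmic reticulum chaperones, lysosome, glycolysis, actin, tight junctions and chromosome X, those below were amino acid transporters (-0.34, 10 genes) and vacuolar proton pump subunits (-0.22, 18 genes). Leaving out 1 embryo moved the first from -0.59 without knockout 49 to -0.22 without knockout 1, and the second from -0.43 without knockout 1 to -0.12 without control 73. Those above were mitochondrial ribosomal proteins, genes without a symbol (0.38) and genome activation factors (0.44, 6 genes, and 0.03 without control 73). Among cell cycle genes, whose median was 0.13 and took either sign when embryos were left out, CCNE1, the G1 cyclin E, had 2, 1, 0 and 1 reads in the knockouts and 163, 9, 43 and 9 in the controls. At 16.05, 8.25, 0 and 22.5 CPM against 88.0, 31.7, 98.0 and 92.6 CPM every knockout was below every control (adjusted p = 0.433 in limma's test). Of 272 tested genes without a symbol, 136 were lower and 136 higher. At an unadjusted p under 0.05, 27 of them were higher, of 74 such genes in all, and 16 were lower, of 618.

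Chromosome X is read with the sexes of the groups in view, since 3 of 4 knockouts were female and 3 of 4 controls male. Of 208 tested X-linked genes, 171 were lower (82.2%), against 70.1% of all genes, with a median of -0.24 relative to the shift after the sex term. Summed X-linked levels were 10149 CPM in the male knockout and 12512 to 12946 CPM in the male controls. They were 9703 to 14908 CPM in the female knockouts and 18518 CPM in the female control. The median was -0.12 without control 73, -0.49 without knockout 1 and -0.03 with no sex term.

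The 12 lower genes with the smallest p had log2 differences between -4.07 and -2.23, each with an adjusted p of 0.284. These genes had to hold 5 or more reads in at least 3 controls, so the depth of the controls helped to choose them and their number is no support. Of the 12, 8 had 0 reads in all 4 knockouts, where a fitted difference depends on the pseudocount. GCA, the calcium-binding protein grancalcin, had the smallest p, 5.32e-05, with 0, 1, 0 and 0 reads in the knockouts and 101, 28, 38 and 22 in the controls. In CPM, the reads of the deep control 39 lay below the limits that 0 reads allow in knockouts 21 and 49, and the other controls lay above them. PTPRJ, a receptor-type tyrosine phosphatase, had 0 reads in each knockout and was at 89.1, 84.6, 41.04 and 72.1 CPM in the controls. All 4 controls lay above the limits that 0 reads allow in knockouts 1 and 5, but control 54 lay below those of knockouts 21 and 49 and control 73 below that of knockout 21. RBM19, a ribosome assembly factor, was likewise at 0 reads and at 26.4, 74.0, 41.04 and 51.5 CPM in the controls, and PLEKHO2 at 33.5, 98.7, 25.1 and 92.6 CPM. For RBM19 only control 41 lay above the limit of knockout 49, and no control above that of knockout 21. For PLEKHO2 controls 39 and 54 lay below both limits. The others at 0 reads in the knockouts were the sulfate transporter SLC13A4, the glycogen branching enzyme GBE1, SPART, TAMM41 and KLHL21, each with at least 1 control within the limit of knockout 5. FTL, the light chain of the iron store ferritin, was at 24.1, 379.5, 331 and 292 CPM in the knockouts and 437, 712, 230.3 and 1348 CPM in the controls. Knockout 1 was far below the other knockouts, which overlapped with control 54.

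**Figure D4:**
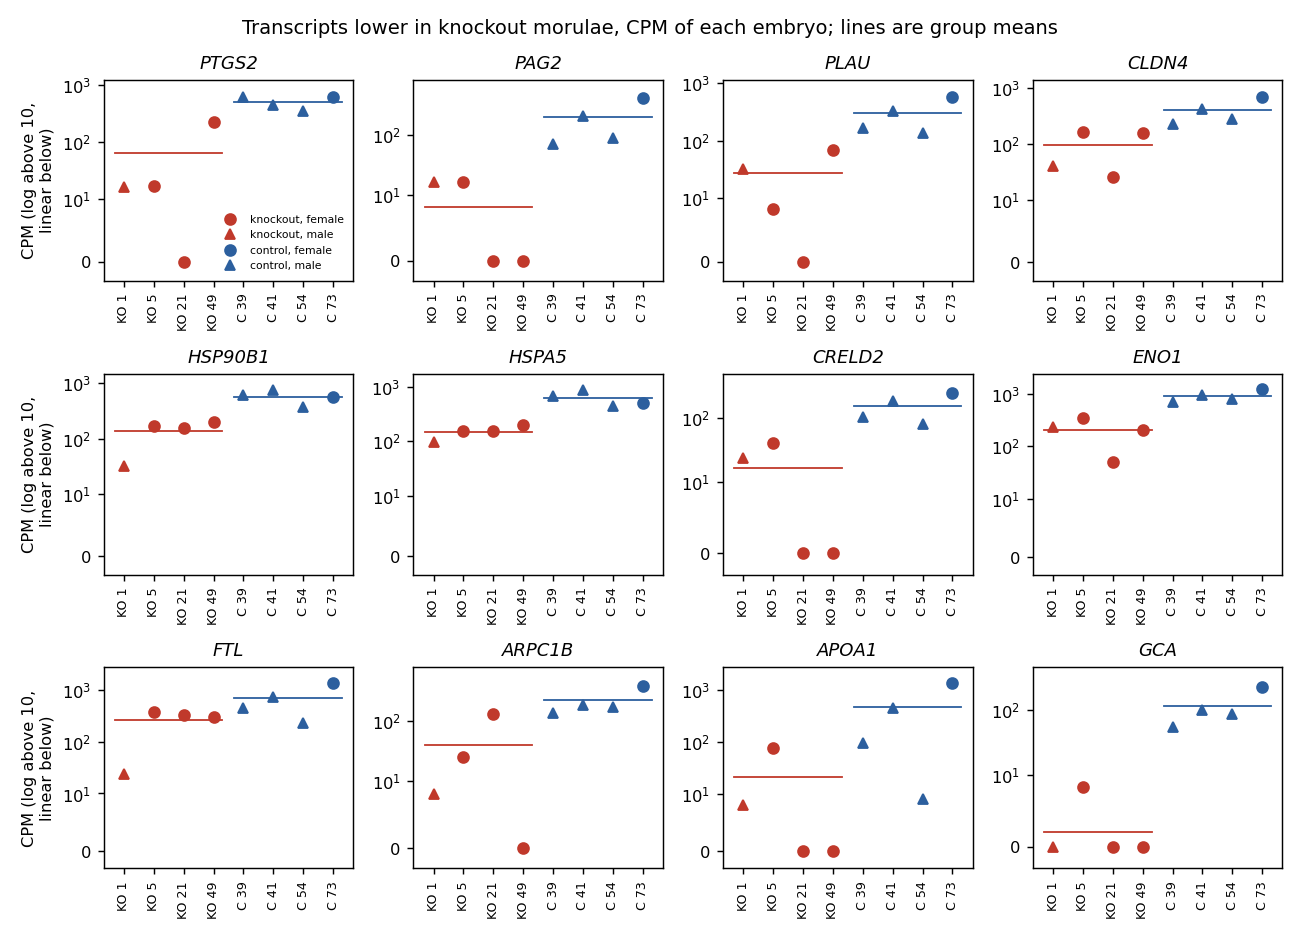
CPM of 12 transcripts that were lower in knockout morulae, in each embryo (log scale above 10, linear below), with red for knockouts (KO), blue for controls (C), circles for females, triangles for males and lines for group means. For PTGS2 the highest knockout, at 225 CPM, lies below the lowest control, at 349 CPM; FTL and APOA1 overlap between groups.

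The 12 higher genes with the smallest p, among genes with a symbol, had log2 differences between 1.64 and 3.55. Their adjusted p in limma's test lay between 0.334 and 0.582. For 9 of them every knockout lay above every control, against 0.394% of all genes. They were picked by p in these embryos and had to hold 5 or more reads in at least 3 knockouts. That count is therefore no support. TRIB2, a pseudokinase, was at 80.2, 57.8, 102 and 135 CPM in the knockouts and 19.4, 28.2, 15.96 and 10.3 CPM in the controls, with 10, 7, 4 and 6 and 36, 8, 7 and 1 reads. JAG2, a ligand of Notch receptors, was at 72.2, 41.3, 229 and 45.0 CPM and 21.6, 3.52, 15.96 and 20.6 CPM. ECHS1, a mitochondrial enzyme of fatty acid oxidation, was at 120.3, 124, 127 and 67.5 CPM and 51.8, 45.8, 143.6 and 0 CPM, with overlap. The others with few reads were NCKIPSD, ARHGEF1, PRDM12, SYNGR2 and AP2A2.

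In 4 of the higher genes the CPM was highest in the embryo with the smallest effective library and lowest in the one with the largest. PATZ1, a zinc finger transcription factor, was at 7862, 8052, 39603 and 24566 CPM in the knockouts and 21.05, 1075, 878 and 3685 CPM in the controls, from 980, 976, 1555 and 1092 and 39, 305, 385 and 358 reads. Knockouts 21 and 49, with the smallest effective libraries, were the highest, and control 39, with the largest, was the lowest. SHISA8, a membrane protein, was at 1099, 1378, 4584 and 3105 CPM and 29.1, 620.3, 98.0 and 484 CPM, from 137, 167, 180 and 138 and 54, 176, 43 and 47 reads. C13H20orf144 and the semaphorin SEMA6A were also highest in knockout 21 and lowest in control 39. The part of library size in these differences was not tested.

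**Figure D5:**
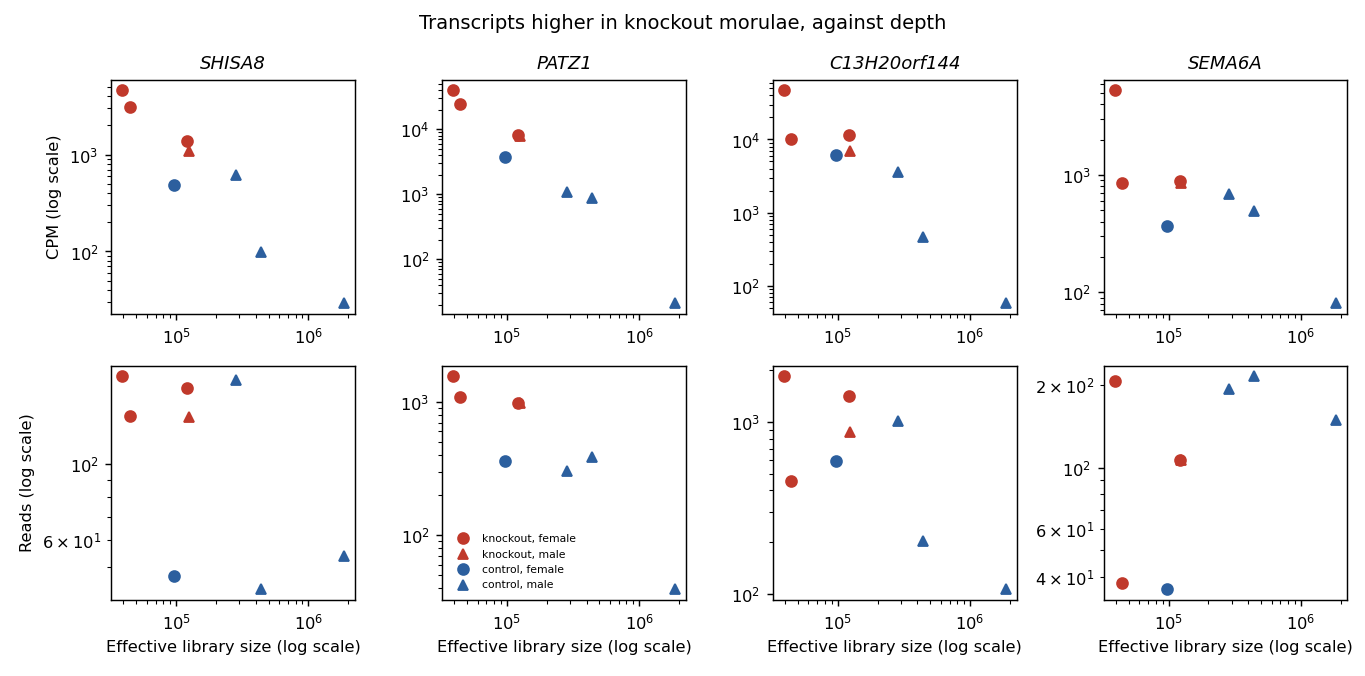
CPM (top) and reads (bottom) of 4 transcripts that were higher in knockout morulae, against the effective library size of each embryo, all axes on log scales; colours and symbols as for depth. PATZ1 is at 39603 CPM in knockout 21, which has the smallest effective library, and at 21.05 CPM in control 39, which has the largest.

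A few genes took over 5% of the reads of single embryos of either genotype. NPAT was at 32933, 121114, 792818 and 89873 CPM in the knockouts and 13673, 73749, 2072 and 87074 CPM in the controls. GSC2 had 1, 11142, 24809 and 8155 reads in the knockouts and 0, 0, 19817 and 0 in the controls, and TBX1 had 14228 reads in knockout 5 and 0 to 8 in each other embryo. ANKRD9 had 7838 reads in knockout 49 and 13014 in control 73, and 9 to 49 in the others. VWA1, an extracellular matrix protein named after its values were seen, was at 32.1, 24.8, 56080.5 and 89.99 CPM in the knockouts and 997, 6957, 1879 and 5064 CPM in the controls. With knockout 21 its p was 0.191, and without it the log2 difference was -6.10 with an adjusted p of 0.000982.

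The authors' deposited table of the same morulae listed 27 of 14878 genes (0.181%) at an FDR under 0.05, 17 higher and 10 lower in knockouts. The 10 lower genes in the authors' deposited table were PAGE4, SLC13A4, PLEKHO2, PTPRJ, GCA, PAG2, APOA1, PLAU, ARPC1B and PTGS2. For 8 of them every knockout lay below every control, against 8.91% of all tested genes. The 10 were called from these same embryos, so that count is no support. Of the 17 higher genes in the authors' deposited table, 15 had no symbol and 15 had over 50% of their knockout reads in knockout 1. Those 17 included 14 with a genomic span under 1500 bases. An example is PTMA (ENSBTAG00000051947), with 14, 1, 0 and 0 reads in the knockouts and 14, 1, 2 and 0 in the controls. For 15 of the 17 higher calls of the authors' deposited table, then, knockout 1 supplied most of the knockout reads. The exceptions were UPK3BL1, with 33.3% of its knockout reads in knockout 1, and a gene without a symbol, with 48.1%.

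Blastocysts are other embryos in a table normalized separately. Their shift was 0.04 over all 12542 genes tested, of which 5472 were below 0. The 12 lower morula genes had in blastocysts a median log2 difference of -0.14 (knockout minus control), with 9 of 12 below 0. This median was -0.32 without control blastocyst 12, with 35.8% of its reads from mitochondrial genes and 79.6% of tested genes at 0 reads, and knockout blastocyst 57. It was -0.075 without control blastocyst 72, whose column carries another sex letter than its title, from which its sex was taken. RBM19 was the 1 of these genes with an unadjusted p under 0.05, and it was higher, at 0.57 in log2. The 12 higher morula genes had a median of 0.70 in blastocysts, with 11 of 12 above 0, of 0.58 without embryos 12 and 57 and of 0.72 without embryo 72, and with 5 at an unadjusted p under 0.05, against 2.03% of all genes in that direction. SEMA6A was at 1.23 and C13H20orf144 at 1.36 in log2, and JAG2 was at -0.42. SEMA6A and C13H20orf144 are among the 4 higher genes whose morula CPM was highest in the smallest effective library. Effective libraries were 60419 to 962577 in knockout blastocysts and 123965 to 15531905 in control blastocysts. The part of library size in the blastocyst differences was not tested. No gene passed at an adjusted p under 0.05 in blastocysts in limma's test (0.0%), where 179 were lower (1.43%) and 254 higher (2.03%) at an unadjusted p under 0.05. Whether the morula and blastocyst differences differ was not tested.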

How the data were processed

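Polyadenylated RNA of single embryos was measured; the labels name a stranded TruSeq mRNA kit. Reads were counted with featureCounts and handled in edgeR on ARS-UCD1.2, per the submitters' processing notes; the aligner is not given in the sources used here. The authors deposited RPKM values over genomic span, with their log2 fold changes and p-values, for morulae and blastocysts separately. CPM was RPKM times the span in kilobases, and reads were CPM over the smallest non-zero CPM; all values came out whole within 0.01 reads.

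Genes with 5 or more reads in 2 or more morulae were tested with limma 3.58.1 (trend, robust, sex as a term) on log2(CPM + 10), a scale that understates changes of low genes, with Benjamini-Hochberg adjustment at 0.05. The members and the gene lists were chosen with earlier results of these data known. The 12 genes with the smallest p in each direction were named. They had to have a symbol and 5 or more reads in at least 3 embryos of the higher genotype. Also named were up to 3 smallest p per list, the authors' calls, genes over 5% of an embryo's reads and marker genes. Others are said to be named after their values were seen. A result under this rule is not reported here. Intervals are Wilson's at 95%. p-values measure the spread between single embryos. The replicate numbers are embryo numbers and pair nothing. Alternatives are in the closing section; a RefSeq gene table was not used because its entries could not be matched to the gene IDs.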

Additional observations from a re-analysis of the deposited data

Results flagged for a closer look

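Among 76 groups of 4 embryos examined, 7 held 1 embryo far from the other 3, by a gap to the nearest that is above Dixon's 95% critical value for 4 samples as a part of the group's range, and chance flags about 1 in 20 groups. Among knockouts, GCA was at 8.25 CPM in embryo 5, which is 1 read, and at 0 in the others. FTL was at 24.1 CPM in knockout 1, against 292 to 380 CPM in the others. ECHS1 was at 67.5 CPM in knockout 49, against 120 to 127 CPM. PRDM12 was at 127 CPM in knockout 21, against 40.1 to 49.5 CPM. SEMA6A was at 5272 CPM in knockout 21, against 855 to 883 CPM. Among controls, embryo 54 stood apart for GSC2, at 45178 CPM against 0 in the others, and for bta-mir-2887-1, at 52.4 CPM against 35042 to 53600 CPM. No explanation was tested.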

How the results depend on the processing

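The count of called genes was 0 with all 8 embryos and in 17 of 22 alternatives, among them voom weights, median ratio and quantile scaling, other pseudocounts, other filters and the fit with no sex term; the smallest adjusted p was 0.0884 with no sex term and 0.0631 with a pseudocount of 50 CPM. It was 41 with embryo quality weights, which weight control 39 at 12.1 and knockout 21 at 0.190, 3 with embryos thinned to one total, 6 with embryos thinned to one effective library and 24 without knockouts 21 and 49. Leaving out 1 embryo at a time gave 0 to 9 calls, the 9 coming without knockout 21. At an unadjusted p under 0.05 the counts ran from 229 lower and 26 higher, with 5 reads asked of 4 embryos, to 1220 and 359 with no filter, and leaving out 1 embryo gave 367 (without control 73) to 889 lower and 43 (without control 39) to 196 higher (without knockout 21). The shift, -0.38 with all 8 embryos, ran from -0.86 with a pseudocount of 1 CPM to 0.034 under quantile scaling, which equalises the distributions by construction and turned its sign; leaving out 1 embryo gave -0.54 to -0.23. Genes with every knockout below every control went from 724 to 333 at one effective library and 351 at one total. The difference in detected genes, knockout minus control, was -4392 (exact permutation p = 0.0571), -1568 at one total (p = 0.0857, exact) and -1034.25 at one effective library (exact permutation p = 0.0286). Thinning to one effective library, the list counts without knockouts and the blastocyst medians without control 72 were chosen after seeing the data. No paired analysis was possible because the embryo numbers differ between the groups. Depth limits all of this: only 1898 tested genes had a read in all 8 morulae.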
